A study of Homo sapiens with 4 samples.

Results

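S100 proteins were followed at the transcript level in THP1 cells, an established human monoblastic leukemia line that carries the MLL-AF9 fusion gene, after transfection with a mimic of miR-511-5p. The members were 10 genes (S100A4, S100A6, S100A8, S100A9, S100A10, S100A11, S100A12, S100A13, S100A16 and S100P) out of 27193 gene names on the array. They were taken by gene symbol, with no threshold on a measured value but with earlier results of these data known, and 12 of the 34127 probes carry these symbols: 8 genes had 1 probe, and S100A11 and S100A12 had 2 probes each. Each treated culture received 30 nM miR-511-5p mimic once, and each control culture received 30 nM of the mimic called control-mimic-#1, with RNA taken on day 2. Both treatments were run in 2 independent experiments, so that 4 single-dye arrays gave 2 arrays per treatment and 1 array per treatment and experiment. All arrays hold RNA of the same cell line, so the spread between them is that between cultures and arrays, not between donors. Mature miR-511-5p itself was not analysed here.

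S100 proteins are small calcium-binding proteins that pair into dimers, and most members carry a pair of EF-hands, helix-loop-helix motifs whose loop holds the calcium ion. Inside the cell they bind target proteins such as annexins, myosin and p53, and several are released and act on receptors of innate immunity, among them TLR4 and the receptor RAGE, encoded by AGER. S100A8, S100A9 and S100A12, the calgranulins, are abundant in neutrophils and monocytes and are widely used as markers of the myelomonocytic lineage. Nearly all of these genes lie in a cluster on chromosome 1, whereas S100P lies on chromosome 4.

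The sequences that were brought together in the experiment are the mimicked miRNA and the probes that read the S100 transcripts. Mature miR-511-5p (RefSeq, GRCh38.p14, chr10:17845122-17845142, plus strand) is shown 5′ to 3′ with its seed, bases 2 to 8, in capitals.
hsa-miR-511-5p: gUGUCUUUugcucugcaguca
The DNA complement of this seed, AAAGACA, was present in none of the 12 S100 probes on the sense strand and in 331 of all 34127 probes (0.970%). A probe covers only 60 bases of a transcript, so this says only that these letters are not in those windows. The following probes are printed because they show which part of the S100 transcript was read. In the probe of S100A11 below and in that of S100A12, the 36 bases in capitals encode a calcium-binding loop and were found by a search for the codons of the loop's calcium-binding residues, which matched 3 of the 34127 probes on the sense strand.
S100A11 probe B: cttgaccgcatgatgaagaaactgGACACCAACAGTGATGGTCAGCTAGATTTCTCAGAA
S100A12 probe B: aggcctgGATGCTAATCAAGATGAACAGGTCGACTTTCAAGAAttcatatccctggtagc
S100A11 probe A: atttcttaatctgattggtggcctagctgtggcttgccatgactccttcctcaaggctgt
S100A9: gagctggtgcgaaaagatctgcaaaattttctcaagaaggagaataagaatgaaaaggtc
S100A6: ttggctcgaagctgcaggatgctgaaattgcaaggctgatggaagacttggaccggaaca
The probes of S100A8 and S100A4 run across the end of the reading frame, and only the bases up to the stop codon, in capitals, are printed.
S100A8: aaagccatgaagaaagccacaaagagTAG
S100A4: ataagcagcccaggaagaaaTGA
Where a gene has 2 probes, probe A is the one with the higher mean signal over the 4 arrays.

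Values below are the log2 of the background-subtracted spot intensity after quantile normalization between arrays, and differences are miR-511-5p mimic minus control mimic on that log2 scale. Probes differ in how strongly they bind, so levels are compared only between arrays of the same probe. Between 64.8% and 69.3% of probes were well above background per array, no gene probe was saturated, and all 4 arrays came from 1 slide. Each S100 probe is printed once per array. The precision of a spot can be read from 999 probes printed 10 times. Among those with a mean log2 signal of at least 10, the median SD between spots was 0.089 on the miR-511-5p array of experiment 1. This was the highest of the 4 arrays. The median SD was 0.056 and 0.069 on the control arrays of experiments 1 and 2, and 0.045 on the miR-511-5p array of experiment 2. The largest SD of such a probe was 1.34 on the miR-511-5p array of experiment 1. On the control arrays of experiments 1 and 2 it was 0.52 and 0.60, and on the miR-511-5p array of experiment 2 it was 0.26. A difference was called where limma gave an unadjusted p below 0.05 over the 22638 probes tested. With 2 arrays against 2, an exact permutation test of a single probe cannot go below a two-sided p of 0.333. In total RNA of a culture, fewer cells that make a transcript and less transcript per cell cannot be told apart.

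S100 transcripts were detected in THP1 cells throughout. Of the 10 genes, 9 were well above background on all 4 arrays, and S100A16 was well above background on 3 of the 4. All 12 probes entered the test. The cells carried the transcripts of their lineage: 8 of 8 monocytic marker genes on the array were well above background on every array. Markers of other cells were detected in part. Of the fibroblast genes 0 of 3 and of 3 neutrophil genes only CSF3R were detected, and the granule genes CEACAM8 and LTF were well above background on no array. Of the markers of other lineages, the keratin genes KRT8 and KRT18, the B-cell gene CD79A, the T-cell gene CD3D and the erythroid gene HBB were detected, and EPCAM, CDH1, KRT19, MS4A1 and CD3G were not. None of the probes of these named markers was called between the mimics.

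None of the 12 S100 probes (0 of 12) passed the test for a difference between the mimics, beside 498 of 22638 probes tested (2.2%). Every S100 probe had a Benjamini-Hochberg adjusted p of 1.00 in limma, and the smallest adjusted p among all probes was 0.790. With the experiment as a block, 2 of the 12 S100 probes were called, both of S100A12, beside 3.95% of all probes tested. The widest difference was that of S100A8, which was lower with miR-511-5p mimic by -1.95 in experiment 1 and by -0.16 in experiment 2. S100A9 and S100A12 were higher with the mimic in both experiments, S100P was lower in both, and the treatments did not overlap for probes of these genes, S100A8 and S100A11: 5 of the 12 probes had treatments that did not overlap, beside 25.7% of all probes tested.

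**Figure D1:**
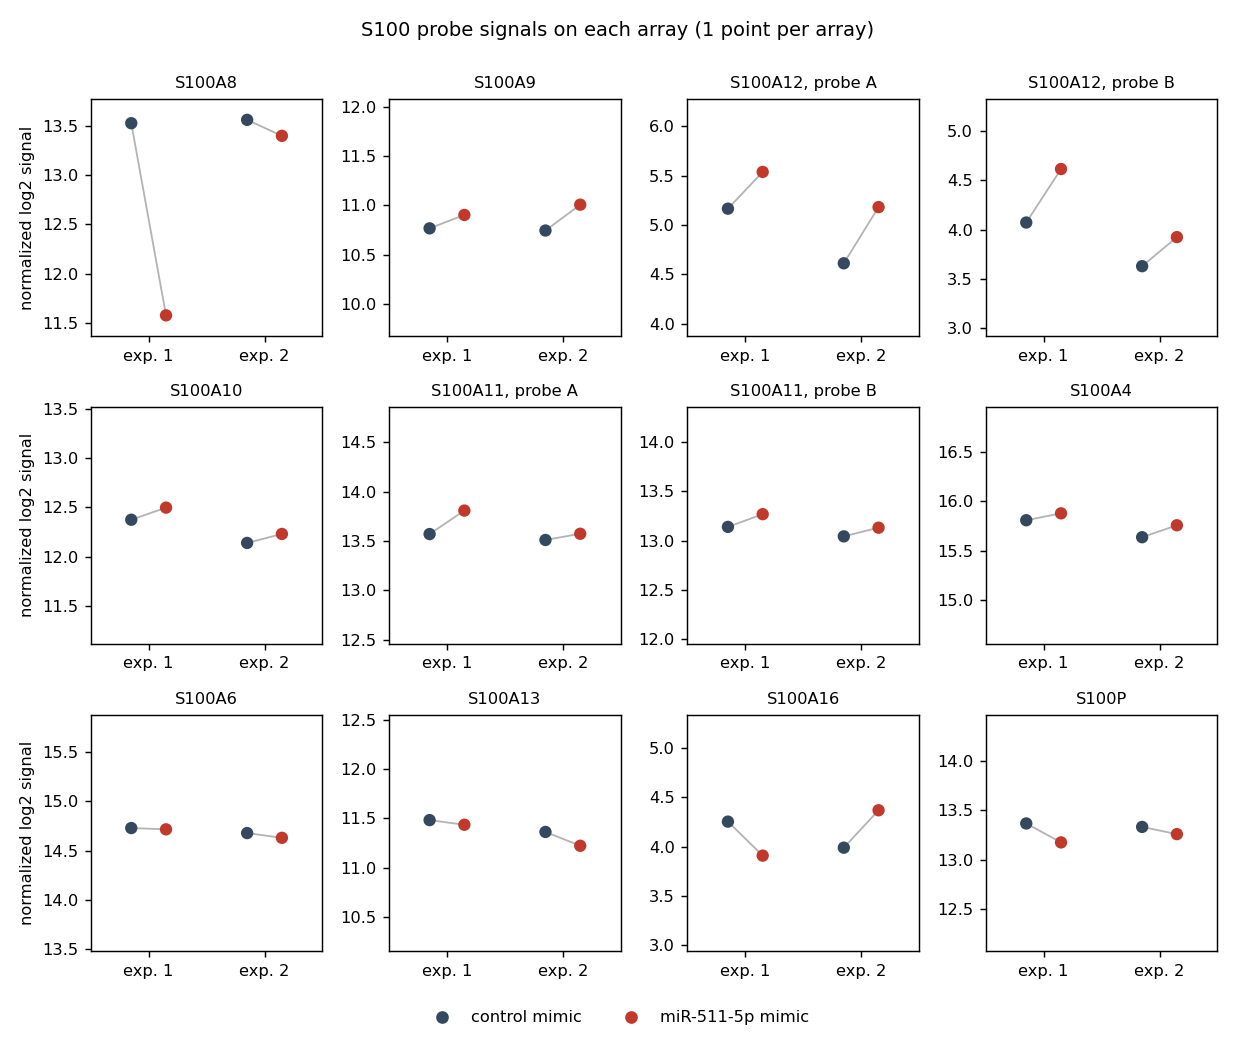
Normalized log2 signal (vertical axis) of the 12 S100 probes on each of the 4 arrays, with grey lines joining the control mimic and the miR-511-5p mimic of the same experiment. All panels span the same log2 range around their own centre. The S100A8 signal of the miR-511-5p mimic in experiment 1 (11.58) lies apart from the 3 other arrays (13.40 to 13.56).

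S100A8 is 1 of the subunits of calprotectin, a dimer with S100A9 that binds zinc and manganese and acts as a ligand of TLR4. Its probe (hg19, chr1:153362548-153362607, minus strand) gave normalized log2 signals of 13.53 with control mimic and 11.58 with miR-511-5p mimic in experiment 1. In experiment 2 the values were 13.56 with control mimic and 13.40 with miR-511-5p mimic. The miR-511-5p array of experiment 1 thus lay below the others, which lay together, although both treated arrays were below both control arrays. The difference was -1.95 in experiment 1, a signal 3.86-fold lower, and -0.16 in experiment 2. Over both experiments limma gave -1.05 (SE 0.64, 95% interval -2.80 to 0.69, n = 2 arrays per treatment), and with the experiment as a block the interval was -2.73 to 0.62. Leaving out the miR-511-5p array of experiment 1 gave a difference of -0.14 in limma, whereas leaving out that of experiment 2 gave -1.96. Each of these fits holds a lone treated array that is assumed to vary like the controls, so neither has an error of the treated cultures.

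The S100A8 spot of experiment 1 was examined in the scanner values. Its processed intensity was 2679 on the miR-511-5p array, against 12163 on the control array of that experiment and 11902 and 12291 on the miR-511-5p and control arrays of experiment 2. Before background subtraction and detrending, the mean signal of the spot was 1538, against 8075, 8949 and 8864 in the same order. The software divides the signal by a detrend factor for the place on the array. At this spot the factor was 0.559, against 0.661, 0.748 and 0.718. The scanner software marked the spot as an outlier on none of the arrays. The SD between its pixels was 10.98% of its mean, beside 12.7%, 11.2% and 13.3% on the other arrays in the same order. So the low value was shared by the pixels of the spot. Among all tested probes, 83 of 22638 (0.367%) had a difference in experiment 1 at least as low as that of S100A8, and 18 had one in experiment 2. Among the 21608 probes well above background on all 4 arrays, 43 (0.199%) had a difference that low in experiment 1.

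The place of this spot differed from that of the other members. The S100A8 probe is the outermost gene probe of its row, in row 525 of 532 and column 8 of 85, next to the 7 control spots that fill the corner of the array, whereas none of the other 11 S100 probes is the outermost of its row or column. Of the 594 tested probes that are printed once and are outermost in their row or column, 37 (6.23%) had a difference in experiment 1 at least as low as that of S100A8, which is 1 of them. At all other places 46 of 21306 such probes (0.216%) did. The median difference of the outermost probes in experiment 1 was -0.24 (quartiles -0.76 and 0.051), and that of the others was 0.033 (quartiles -0.075 and 0.14). In experiment 2 the medians were -0.021 and -0.00073, and 1 outermost probe (0.168%) was that low. The 16 tested probes within 4 rows and 2 columns of S100A8 had a median difference of -0.031 in experiment 1, and they ranged from -1.75 to 0.21. The part of the spot's place in the S100A8 difference was not tested.

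**Figure D2:**
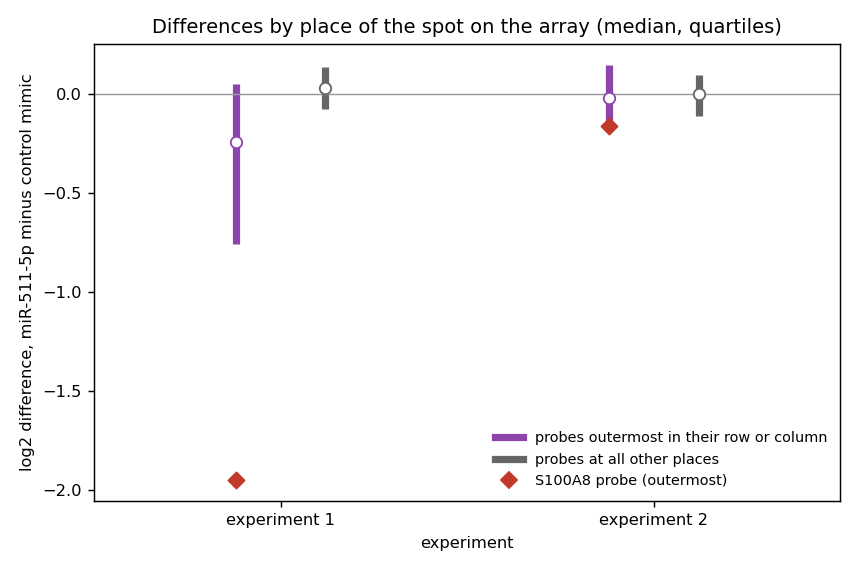
Difference between miR-511-5p mimic and control mimic (log2, vertical axis) in each experiment (horizontal axis) for tested probes printed once. Open circles are medians and bars run from the lower to the upper quartile, for 594 probes that are outermost in their row or column and 21306 probes at all other places. The red diamond is S100A8, at -1.95 in experiment 1 and -0.16 in experiment 2.

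S100A9, the partner of S100A8 in calprotectin, was measured by a coding probe that crosses an exon junction (hg19, chr1:153330874-153333143, plus strand, 60 bases spread over 2270 bases of the genome). Its log2 signals were 10.77 with control mimic and 10.90 with miR-511-5p mimic in experiment 1. In experiment 2 they were 10.74 and 11.01. Both treated arrays were above both control arrays, by 0.14 and 0.26 in experiments 1 and 2. limma gave 0.20 (SE 0.095, 95% interval -0.063 to 0.46, n = 2 per treatment), and 0.19 after another background correction (normexp), where it passed the unadjusted threshold. The estimates of S100A9 and S100A8 had opposite signs in both experiments.

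S100A12, also called calgranulin C, is a ligand of RAGE. Probe A (hg19, chr1:153346234-153346293, minus strand) read 5.17 with control mimic and 5.54 with miR-511-5p mimic in experiment 1, and 4.61 and 5.18 in experiment 2. Probe B (chr1:153346346-153346405), which reads the calcium-binding loop printed above, gave 4.07 and 4.62 in experiment 1 and 3.63 and 3.92 in experiment 2. With both probes the mimic array was the higher one of each experiment, and with probe A, but not with probe B, both treated arrays were above both control arrays. These are signals close to background, with processed intensities between 11.97 and 40.2, although both probes were well above it on all 4 arrays. Before normalization between arrays, those of probe A in experiment 1 were 40.2 with miR-511-5p mimic and 38.9 with control mimic. At probe B they were 21.0 and 18.9. The scanner software gave these spots errors of 11.2% to 14%. The median processed intensity of all gene spots was 92.3 and 111 on these arrays.

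The differences of S100A12 were 0.37 and 0.57 at probe A and 0.54 and 0.29 at probe B, in experiments 1 and 2. In limma, probe A differed by 0.47 (SE 0.25, 95% interval -0.20 to 1.14) and probe B by 0.42 (SE 0.30, 95% interval -0.40 to 1.23), n = 2 arrays per treatment. Leaving out 1 array moved the difference of probe A between 0.19, without the control array of experiment 2, and 0.75, without that of experiment 1. Probe B moved between 0.073, without the miR-511-5p array of experiment 1, and 0.76, without that of experiment 2. Both probes were also lower in experiment 2 than in experiment 1 under either mimic. With the experiment as a block the estimates stayed and their errors shrank, to an SE of 0.096 (95% interval 0.16 to 0.78) at probe A and 0.11 (95% interval 0.081 to 0.76) at probe B. These were the 2 S100 probes of 12 that were called in the blocked fit, beside 3.95% of all probes tested, and their adjusted p was 0.969 in limma. After normexp correction, which adds an offset of 50 to signals of this size, the difference at probe A was 0.16 in limma.

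S100A10 and S100A11 bind annexins at the membrane, S100A10 (p11) mainly annexin A2 and S100A11 mainly annexin A1. The S100A10 probe (hg19, chr1:151955420-151955479, minus strand) read 12.37 with control mimic and 12.50 with miR-511-5p mimic in experiment 1, and 12.14 and 12.23 in experiment 2. The mimic array was the higher one in each experiment, by 0.12 and 0.092, but the treatments overlapped because both arrays of experiment 2 were lower than both of experiment 1. limma gave 0.11 (SE 0.15, 95% interval -0.31 to 0.52).

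S100A11 was read by adjoining coding probes that share 1 genomic base. Probe A (hg19, chr1:152005160-152005219, minus strand) gave 13.57 and 13.81 with control and miR-511-5p mimic in experiment 1 and 13.51 and 13.57 in experiment 2. Probe B (chr1:152005219-152005278), with the loop printed above, gave 13.14 and 13.27 in experiment 1 and 13.04 and 13.13 in experiment 2. Both probes were highest on the miR-511-5p array of experiment 1 and lowest on the control array of experiment 2, and the mimic array was the higher one of each experiment. Differences were 0.24 and 0.063 at probe A and 0.13 and 0.087 at probe B. limma gave 0.15 (SE 0.12, 95% interval -0.18 to 0.48) and 0.11 (SE 0.11, 95% interval -0.18 to 0.40). With 1 array left out, probe A moved between 0.033 and 0.27 and probe B between 0.039 and 0.18. Both low ends came without the miR-511-5p array of experiment 1. Treatments did not overlap at probe A and did at probe B.

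S100A4, which binds nonmuscle myosin and is linked to cell migration, and S100A6 (calcyclin), which binds the ubiquitin ligase adaptor CACYBP, lie close together in the cluster. The S100A4 probe (hg19, chr1:153516198-153516257, minus strand) read 15.81 with control mimic and 15.88 with miR-511-5p mimic in experiment 1, and 15.64 and 15.76 in experiment 2. Its differences were 0.070 and 0.12, and limma gave 0.095 (SE 0.11, 95% interval -0.22 to 0.41). This estimate moved between 0.0095 and 0.18 when 1 array was left out. The S100A6 probe (chr1:153507255-153507685, spread over 431 bases and so across an exon junction) read 14.73 and 14.72 with control and miR-511-5p mimic in experiment 1 and 14.68 and 14.63 in experiment 2. The 4 arrays thus lay within a narrow band, with differences of -0.013 and -0.049. limma gave -0.031 (SE 0.095, 95% interval -0.29 to 0.23). For both genes the treatments overlapped.

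S100A13, which takes part in the release of FGF1 and interleukin-1α without a signal peptide, was measured at 11.48 with control mimic and 11.44 with miR-511-5p mimic in experiment 1 (hg19, chr1:153591285-153591344, minus strand). In experiment 2 it read 11.36 and 11.22. It was slightly lower with the mimic each time, by -0.047 and -0.14, with a limma difference of -0.093 (SE 0.12, 95% interval -0.43 to 0.24). S100A16, a broadly expressed member, was close to background (chr1:153579675-153579734). It read 4.25 and 3.91 with control and miR-511-5p mimic in experiment 1, where the miR-511-5p spot was not well above background, and 3.99 and 4.37 in experiment 2. Its differences of -0.34 and 0.38 pointed opposite ways, the only such case among the 12 probes, and limma gave 0.017 (SE 0.20, 95% interval -0.54 to 0.58).

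S100P, found in placenta and in several carcinomas and a binding partner of ezrin and RAGE, lies outside the cluster (hg19, chr4:6698819-6698878, plus strand). It read 13.37 with control mimic and 13.17 with miR-511-5p mimic in experiment 1, and 13.33 and 13.26 in experiment 2. Both treated arrays were below both control arrays, by -0.19 and -0.073. limma gave -0.13 (SE 0.094, 95% interval -0.39 to 0.12).

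**Figure D3:**
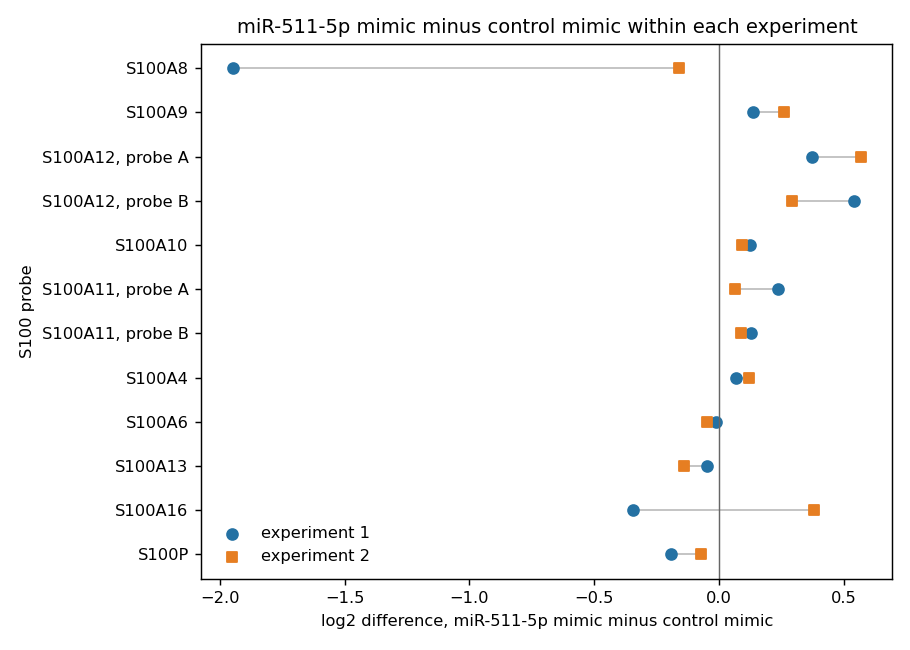
Difference between miR-511-5p mimic and control mimic (log2, horizontal axis) of each S100 probe in experiment 1 (blue circles) and experiment 2 (orange squares), joined by grey lines. S100A8 spans -1.95 to -0.16, and S100A16 is the only probe on opposite sides of 0.

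As a group, the S100 probes had differences that mostly kept their sign after normalization. The median difference of the 12 probes was 0.097 in experiment 1 and 0.089 in experiment 2, beside 0.030 and -0.00055 over all tested probes. The median size of the difference, regardless of sign, was 0.16 and 0.13 for S100 probes and 0.11 and 0.10 for all. By their limma estimates 8 probes were higher and 4 were lower with the mimic, the 4 being those of S100A8, S100A6, S100A13 and S100P. The sign was the same in both experiments for 11 of 12 probes (91.7%), beside 11538 of 22638 (51.0%) of all tested probes. These counts describe probes of a gene family on the same 4 arrays and carry no test. Outside S100A8, S100A12 and S100A16, the interval bound farthest from 0 was 0.52, at S100A10.

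**Figure D4:**
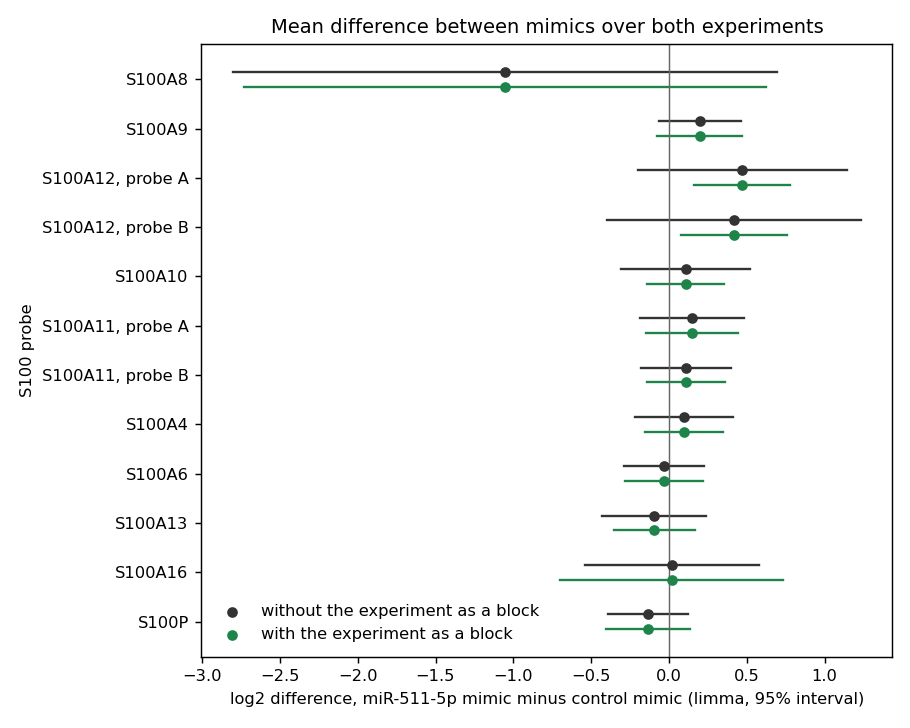
limma difference between miR-511-5p mimic and control mimic (log2, horizontal axis) with its 95% interval for each S100 probe, without (black) and with (green) the experiment as a block. All 12 intervals without the block include 0, and with it those of the S100A12 probes, 0.16 to 0.78 and 0.081 to 0.76, do not.

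The same probes were compared between the independent experiments. In a limma fit with treatment and experiment, 3 of 12 S100 probes passed an unadjusted p below 0.05 for experiment 2 minus experiment 1, beside 11.6% of all tested probes, and 2 passed under 75th percentile scaling (beside 12% of all tested probes), under normexp correction (beside 12.6%) or without the filter on dim probes (beside 7.86%). The 3 were S100A10 (-0.25, SE 0.078) and the S100A12 probes A (-0.46, SE 0.096) and B (-0.57, SE 0.11). The adjusted p passed the threshold for no probe, S100 or other (0%), and the smallest was 0.388 in limma. Within the control mimic alone, S100A12 was lower in experiment 2 by -0.55 and -0.44 at probes A and B and S100A10 by -0.24, and within the miR-511-5p mimic the same probes were lower by -0.36, -0.69 and -0.27. For S100A8 the difference between experiments was 0.034 with control mimic and 1.82 with miR-511-5p mimic, and the miR-511-5p array of experiment 1 is the low one described above. The median over the 12 probes was -0.13, and over all tested probes -0.0093.

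**Figure D5:**
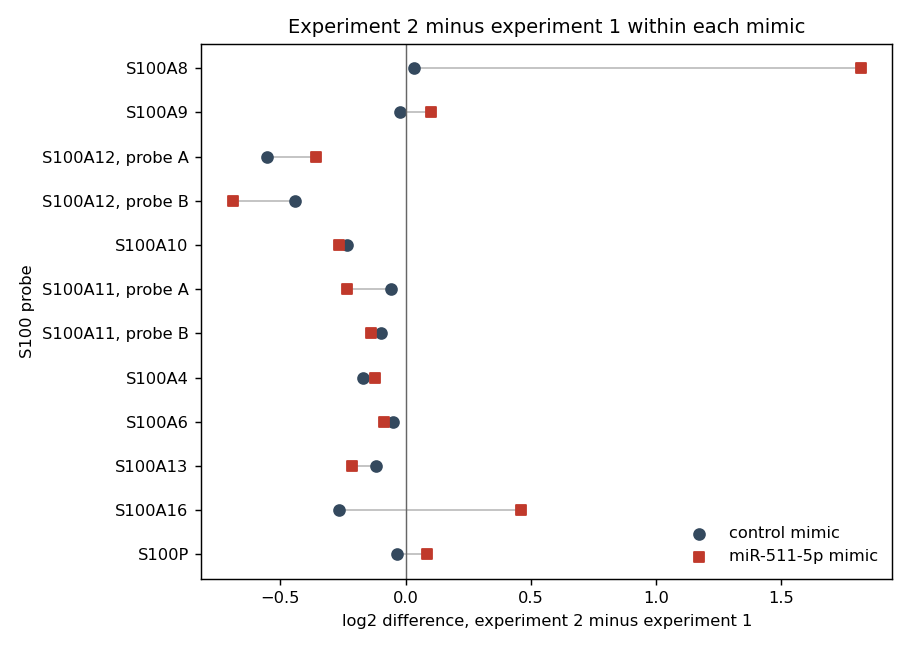
Difference between experiment 2 and experiment 1 (log2, horizontal axis) of each S100 probe under control mimic (dark circles) and under miR-511-5p mimic (red squares). S100A10 and both S100A12 probes lie below 0 under both mimics, and S100A8 differs by 1.82 under the miR-511-5p mimic alone.

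The remaining S100 genes gave few probes that could be tested. Of 10 further genes with 13 probes, 5 probes of 4 genes (S100A1, S100A2, S100A5 and S100A7) could be tested and 0 passed in limma, while S100A14, S100G and S100Z were well above background on no array. Among receptors and binding partners of S100 proteins, 40 of 49 probes, covering 24 of 28 genes, were tested. Of the 40 probes 1 was called, beside the 2.2% of all probes tested, for PPFIBP1, which encodes liprin beta-1, a partner of S100A4: it was lower with the mimic by -0.34 and -0.40 (limma -0.37, SE 0.11, adjusted p = 1.00). The other PPFIBP1 probes differed by -0.21 and -0.25 in limma and did not pass. Without the miR-511-5p array of experiment 1 or the control array of experiment 2, 0 partner genes were called. The receptor genes gave no call. TLR4 differed by 0.11 and -0.10 at its probes in limma, AGER by 0.0052 and -0.12, CD36 by 0.096 and BSG by -0.051. Nor did the annexin genes pass, with 0.10 for ANXA1, 0.072 for ANXA5, and 0.056 and 0.0086 at the probes of ANXA11. ANXA6 differed by 0.38 (-0.15 and 0.92 in experiments 1 and 2), and the ANXA2 probes differed by 0.045 and 0.71. The latter ANXA2 probe was well above background on 3 of the 4 arrays, but not on the control array of experiment 2. The size of its difference is therefore uncertain. IL1A, a cargo of the S100A13 release route, was well above background on no array.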

How the data were processed

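Total RNA was labelled with Cy3 and hybridized to Agilent whole genome arrays. The authors deposited 1 scanner file per array, with the processed intensity of each spot background-subtracted and detrended within the array by Feature Extraction (version 10.7.3.1 in the file header, 10.5.1.1 in the submitters' processing notes), on hg19 annotation. A log2 table deposited with them orders the spots of an array as the scanner values do (lowest Spearman correlation 1) and served as an alternative. The members and gene lists were chosen with earlier results of these data known.

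From the scanner files, 43118 gene spots per array were taken to log2 in R 4.3.3, after 232 to 301 outlier spots per array were left out. Arrays were quantile normalized, spots of a probe averaged, and 22638 of 34127 probes tested: those that the scanner software called well above background on each array of either treatment, on over 50% of the spots of a probe. limma 3.58.1 (lmFit, eBayes) compared the treatments without a block, with 4.14 degrees of freedom in all. Tests were two-sided, with Benjamini-Hochberg adjustment over all tested probes. The labels' experiment number pairs the arrays: deviations of same-experiment arrays from the treatment means had a correlation of 0.271. All probes of the 10 genes are named, and from the list of partners the called probe. The other PPFIBP1 probes, receptors, annexins, IL1A, further S100 genes and cell type markers were named after their values were seen. The functions were tested on simulated data. The number of arrays limits the precision.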

Additional observations from a re-analysis of the deposited data

How the results depend on the processing

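Directions and calls were recomputed under 10 other settings and by leaving out each of the 4 arrays. The directions are those of the 10 genes, by the probe with the higher signal where there were 2. The calls cover all 12 S100 probes. No S100 probe was called under 75th percentile scaling, without the filter on dim probes, with outlier spots kept, with the deposited table, with only probes well above background on all 4 arrays (S100A16 left out), with an intensity trend or with a plain test of each averaged probe. A further condition over replicate spots could change no S100 call, since each S100 probe is printed once. S100 probes were called under normexp correction (1, S100A9) and with the replicate block (2, both S100A12). Of all 22638 tested probes, 478 were called under 75th percentile scaling, 265 under normexp and 285 with the intensity trend. The plain test called 708 of them and the block 894. Of 22658 probes, 498 were called with outlier spots kept and 488 with the deposited table. Of 21608 probes well above background on all 4 arrays, 393 were called. Without the filter 1029 of 34083 were called, and 1 further S100 gene was called there. The difference of S100A16 turned to -0.032 under 75th percentile scaling. Leaving out 1 array gave 0 to 2 called S100 probes, 516 to 1379 called probes in all, 0 to 1 further S100 genes and 0 to 3 partner genes. A treatment left with a lone array was assumed to vary like the other. The 2 calls came without the miR-511-5p array of experiment 2 (S100A8 and S100A12 probe B), and 1 without the control array of experiment 1 (S100A12 probe A, 0.75). Signs turned within the ranges -0.026 to 0.24 for S100A10, -0.20 to 0.013 for S100A13, -0.21 to 0.25 for S100A16 and -0.074 to 0.012 for S100A6. The cause was not tested. The block changed no other S100 call. S100A12 and S100A16 lie near background, and the effect of this on their precision was not tested.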
